A study of Mus musculus with 11 samples.

Results

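The actin cytoskeleton and contractility genes of the mouse liver were followed through the induction of YAP, the transcriptional coactivator that the Hippo pathway restrains. The group comprised 44 genes, chosen by symbol from a deposited table of 20893 genes: 2 cytoplasmic actins, 5 subunits of non-muscle myosin II, 10 tropomyosins, calponins, transgelins and caldesmon, 7 crosslinkers and linkers, 5 proteins of adhesion sites, 8 genes of filament turnover and branching, the 3 members of the ezrin, radixin and moesin family, and 4 further genes, Rhob, Rhoc, Rnd3 and Cdc42ep3. All 44 were listed, and 43 passed the filter of at least 0.5 eRPKM in at least 3 livers. Vil1, encoding the microvillar bundler villin, did not pass, with 2 to 14 reads per liver. Levels are given in eRPKM, the authors' exonic reads per kilobase after scaling to library size.

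RNA was measured in 11 C57BL/6 liver samples, 1 library each. They are called livers here, although the labels do not say that each came from a separate animal. The 4 control livers (WT) carried ROSA26-rtTA-IRES-EGFP without the YAP transgene and came from mice on doxycycline food for 7 days. The induced livers carried the same allele with tetYAP, and had received doxycycline food for 3 days (4 livers) or for 7 days (3 livers). Per the study's methods, tetYAP encodes a YAP mutant that lacks an inhibitory phosphorylation site, placed at the Col1A1 locus, and an albumin-promoter Cre switches on rtTA, the doxycycline-dependent activator, so that induction was directed to hepatocytes while RNA came from whole liver. All groups, controls included, were on doxycycline. The 3-day livers differed from the controls in the length of feeding as well as in the transgene, and these cannot be told apart. The labels give no age or sex.

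Actin filaments are assembled from monomers that cofilin and profilin recycle, and are branched by the Arp2/3 complex. They are bundled by alpha-actinin, crosslinked into networks by filamin, and pulled by non-muscle myosin II once its regulatory light chains are phosphorylated. Ezrin, radixin and moesin tie the filaments to the plasma membrane, and talin, vinculin and zyxin tie them to integrin adhesions. In liver, hepatocytes use this system to shape the bile canaliculus, while smooth-muscle-type isoforms such as Tagln, Cnn1 and Myl9 belong mainly to vessel walls and activated stellate cells. Tension in the actin network is itself known to favour nuclear YAP, and several actin genes are textbook targets of serum response factor (SRF).

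The libraries held from 1251396 to 5941357 reads on genes, a 4.75-fold span. The 7-day livers were the deepest as a group (5312486 to 5941357 reads). The 3-day livers all lay below them (2660233 to 3681416 reads), and control liver 4 was the shallowest library. Yap1 did not check the induction: it lay at 13.9 to 21.1 eRPKM in the controls, against 15.3 to 19.3 (3 days) and 17.4 to 19.0 (7 days), and whether the counting on the mouse gene takes up transgene reads is not given in the sources used here. Xist exceeded Ddx3y in 2 control livers, 2 livers at 3 days and all 3 at 7 days.

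Highly expressed genes were compressed in these values. No gene exceeded 1502 reads per kilobase in any library. Alb, the most familiar hepatocyte transcript, gave 2417 to 3102 reads in every library whatever its depth. Of the members, Actb and Cfl1 sat in the range where this mattered most, with 600 to 1000 reads per kilobase in the deepest control. For the 379 genes in that range the shallowest control read above the deepest by a median of 0.71 on the log2 scale, against -0.54 for genes under 100. In all, 21 members reached 300 reads per kilobase in some liver. The plot of level against depth shows that in the controls Actb fell as depth rose and that Flna did not.

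**Figure D1:**
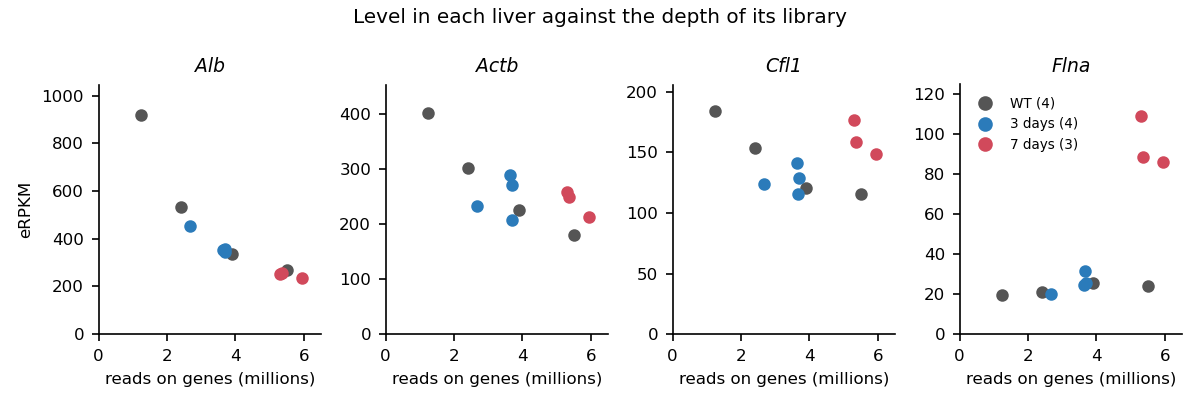
Level (eRPKM, vertical axis) of Alb, Actb, Cfl1 and Flna in each of the 11 livers (points, coloured by group) against the reads on genes of its library (horizontal axis, in units of 1e6 reads). Alb fell steadily with depth and Actb was highest, at 401 eRPKM, in the shallowest library, whereas Flna stayed between 19.6 and 31.3 eRPKM in the control and 3-day livers across depths.

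After 7 days of YAP induction, 19 of the 43 tested members were higher than in the controls and 0 were lower, by limma at an adjusted p below 0.01 with a log2 change beyond 0.5 either way. In 28 members every 7-day liver exceeded every control and in 2 (Tpm2 and Rdx) every one lay below, as held for 36.7% and 13.3% of all tested genes. The calls made up 44.2% of the tested members, beside 23.8% of all 14244 tested genes called in either direction (18.0% higher and 5.77% lower). The median log2 change of the members was 0.84. All tested genes together had a median of 0.26, a shift that depended on scaling, since it was 0.02 with median-ratio size factors and -0.08 after quantile normalization. With these scalings, 60.3% and 50.5% of all calls were higher calls, against 75.7% in the values as deposited, and the members gave 17 and 26 higher calls, each with 1 lower call (Rdx and Tpm2). Relative to the median of all tested genes, the called members still ran from 0.57 for Cnn2 to 3.47 for Capg.

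After 3 days, 0 of the 43 members were called. In this comparison 0.0421% of all tested genes were called. The members had a median log2 change of 0.01 (all tested genes 0.02), 3 of them had an unadjusted p under 0.05 (Myl12a, Tpm2 and Rhob) and none an adjusted p under 0.05, and limma-voom on recovered reads also called 0. The 95% interval of the log2 change had an upper bound under 1 for 40 of the 43 members, so a doubling lay outside the interval for most of them. Between 3 and 7 days 20 members rose and 1, Rdx, fell (48.8%, beside 19.3% of all tested genes, 14.0% higher and 5.31% lower), with a median log2 change of 0.91. The 7-day livers lay entirely above the 3-day livers in 33 members and below them in 1 (31.3% and 13.8% of all tested genes). This comparison and that against the controls share the 7-day livers. Between 3 and 7 days depth separated the groups too, and its part in the changes was not tested.

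**Figure D2:**
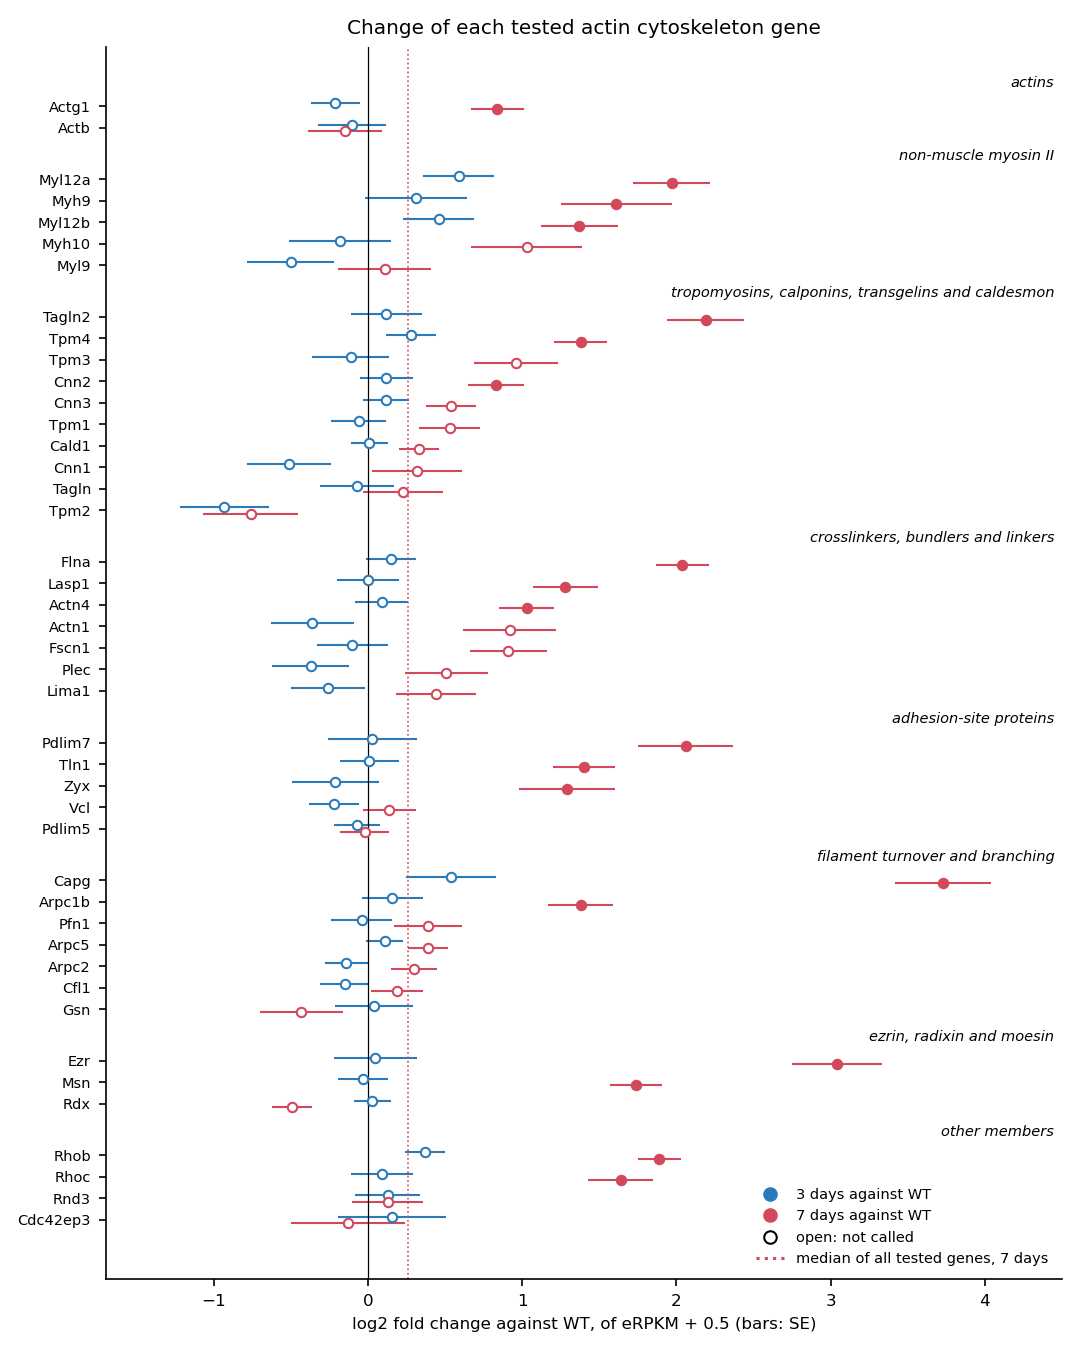
log2 fold change of eRPKM + 0.5 against the control livers (horizontal axis, points with SE) for the 43 tested members, grouped by role, at 3 days (blue, 4 livers) and 7 days (red, 3 livers). Filled points passed the test; the filled points are all 7-day values, from 0.83 for Cnn2 to 3.73 for Capg, while the 3-day points lie between -0.93 and 0.59, and the dotted line marks the median of all tested genes at 7 days, 0.26.

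In the ezrin, radixin and moesin family Ezr and Msn rose at 7 days, and Rdx was not called against the controls. Ezr (chr17:6942390-6987133 in mm9, minus strand), encoding ezrin, the member typical of microvilli and epithelial apical surfaces, read 2.27, 4.60, 4.46 and 2.02 eRPKM in the controls, 2.49, 3.05, 4.64 and 3.26 at 3 days and 31.4, 25.5 and 31.8 at 7 days. The 7-day livers stood far above all others, and the 3-day livers overlapped the controls. The log2 change at 7 days was 3.04 ± 0.29 (SE, adjusted p = 1.23e-05), whereas at 3 days it was 0.05 ± 0.27.

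Msn (chrX:93291381-93363891, plus strand), encoding moesin, the member abundant in leukocytes and endothelium, read 12.5, 15.4, 16.0 and 11.4 eRPKM in the controls, 12.5, 12.2, 16.3 and 12.9 at 3 days and 47.2, 41.1 and 53.4 at 7 days. It rose by a log2 change of 1.74 ± 0.17 (adjusted p = 1.50e-05), with no overlap between the 7-day livers and the rest. Rdx, encoding radixin, the family member that predominates in hepatocytes, read 69.5, 60.4, 63.1 and 73.8 eRPKM in the controls, 75.1, 68.8, 62.8 and 65.7 at 3 days and 47.4, 44.4 and 50.3 at 7 days. All 7-day livers lay below all controls, yet the log2 change of -0.49 ± 0.13 missed the call (adjusted p = 0.0104), while against 3 days the fall of -0.52 ± 0.13 passed it (adjusted p = 0.00874) in the fit as deposited and in 11 of 26 alternatives.

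Expressed as shares of the family's summed eRPKM, ezrin made up 4.02% ± 1.76 (SD, n = 4) of the control total and 23.8% ± 1.03 (n = 3) at 7 days. Moesin went from 16.6% ± 3.08 to 38.0% ± 1.27, and radixin from 79.4% ± 4.82 to 38.2% ± 1.56. At 3 days the shares were 3.98%, 15.9% and 80.1%. Each of these 7-day shares was separated from the controls (exact permutation p = 0.0286, two-sided, the smallest that 4 against 3 livers allow), but over the 51 share tests made the adjusted p was 0.112, and none of the 51 passed 0.05. A pass needed most of the 51 tests to reach this smallest p, so the lack of one decides little. The shares are ratios within a liver and so do not depend on a common scaling of its values, but they are open to the compression that moves with depth. By reads per kilobase in the deepest control, Rdx sat in the range of 300 to 600. There the shallowest control differed from the deepest by a median of 0.07 on the log2 scale. Ezr and Msn sat under 100, where it differed by -0.54. The 7-day libraries were the deepest, in the direction of a lower radixin share, and the part of compression in the shares was not tested. Ezr and Msn themselves were called in all 26 alternatives, depth as a covariate included. Over the 17 paralog shares computed, 11 were separated between 7-day and control livers, 10 between 7 and 3 days and 1 between 3 days and controls. Shares within a family sum to the whole, so these are not counts of independent changes. No set of other gene families was computed to set beside them.

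**Figure D3:**
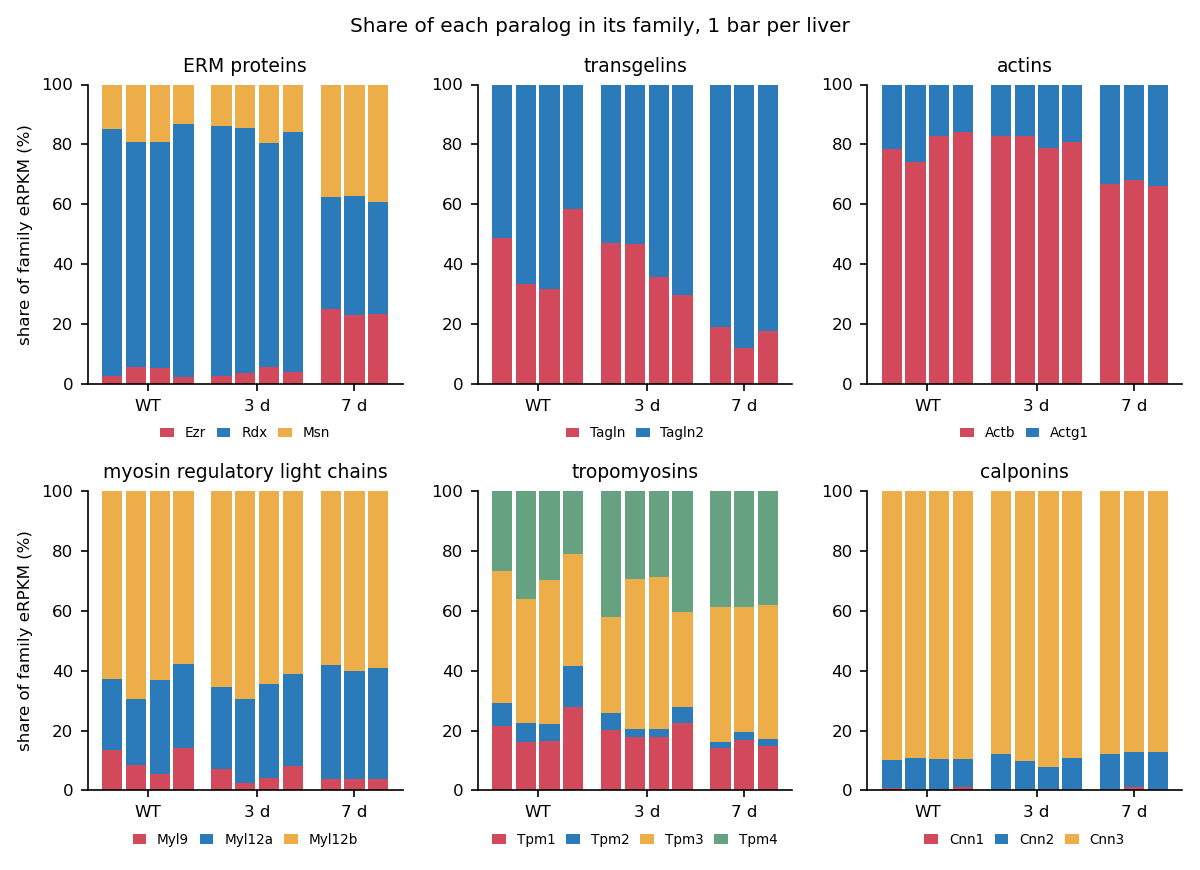
Share of each paralog in the summed eRPKM of its family (vertical axis, percent), 1 stacked bar per liver, for control (4), 3-day (4) and 7-day (3) livers. Radixin fills 75.1% to 84.6% of the ERM bars in the controls and 37.1% to 40.0% at 7 days, and Tagln2 fills 41.6% to 68.4% of the transgelin bars in the controls and 81.0% to 88.1% at 7 days.

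Non-muscle myosin II rose in its heavy chain Myh9 and in both of its broadly expressed regulatory light chains. Myh9 (chr15:77591017-77672605, minus strand), encoding the heavy chain of myosin IIA, read 33.9, 33.1, 35.6 and 27.2 eRPKM in the controls, 21.4, 56.6, 80.8 and 26.5 at 3 days and 101, 91.4 and 108 at 7 days. The 3-day livers were the most scattered, with livers 2 and 3 above every control and livers 1 and 4 below the control range. The 7-day change was 1.61 ± 0.36 on the log2 scale (adjusted p = 0.00349); the adjusted p reached 0.0544 among 26 alternatives, the call being lost with depth as a covariate, among livers with more Xist than Ddx3y, and when control liver 4 or any single 7-day liver was left out.

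Myl12a (chr17:71342996-71352218, minus strand), a regulatory light chain gene, read 20.01, 17.2, 23.1 and 18.3 eRPKM in the controls, 18.8, 40.6, 40.2 and 25.3 at 3 days and 84.3, 65.2 and 85.96 at 7 days. Its neighbour Myl12b read 53.0, 54.3, 46.8 and 38.0 eRPKM in the controls, 45.0, 99.96, 82.5 and 50.2 at 3 days and 128, 109 and 137 at 7 days. In both genes the 7-day livers were above all others and livers 2 and 3 were the highest of the 3-day group. The log2 changes at 7 days were 1.97 ± 0.25 for Myl12a (adjusted p = 6.83e-05) and 1.37 ± 0.25 for Myl12b (adjusted p = 0.00109). The Myl12b call was lost with depth as a covariate (adjusted p = 0.0222), whereas Myl12a was called in all 26 alternatives. The genes are near-identical in part, 15.9% of 50-base windows in Myl12b coding transcripts being shared with Myl12a, so how the counting divided such reads bears on their ratio.

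The smooth-muscle-type light chain Myl9 was not called. It lay between 4.09 and 11.3 eRPKM in the controls and between 6.93 and 8.94 at 7 days, with a log2 change of 0.11 (95% interval -0.55 to 0.77). Its share of the 3 regulatory light chains was 10.4% ± 4.09 in the controls and 3.80% ± 0.0706 at 7 days, the shares not overlapping, and Myl12a held 26.2% ± 4.14 and 37.1% ± 1.14. Myh10, the heavy chain of myosin IIB, went from 4.51 ± 1.50 to 9.45 ± 0.402 eRPKM and missed the call (log2 change 1.03 ± 0.36, adjusted p = 0.0374).

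Among the thin-filament binding proteins 3 of 10 genes were called, the non-muscle paralogs Tpm4, Cnn2 and Tagln2. The tropomyosin and the calponin most abundant in the controls, Tpm3 and Cnn3, were not called against them. Tagln2 (chr1:174430178-174437511, plus strand), the widely expressed transgelin, read 16.4, 20.2, 14.3 and 10.1 eRPKM in the controls, 14.8, 11.8, 18.3 and 21.2 at 3 days and 56.5, 83.7 and 70.1 at 7 days. It rose at 7 days by 2.19 ± 0.25 on the log2 scale (adjusted p = 3.60e-05). Tagln, the smooth-muscle transgelin, overlapped between groups at 6.61 to 15.7 eRPKM in the controls and 11.3 to 15.0 at 7 days (log2 change 0.23, 95% interval -0.34 to 0.80). Tagln2 thereby held 56.9% ± 12.8 of the pair in the controls and 83.8% ± 3.76 at 7 days.

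Tpm4 (chr8:74658874-74677041, plus strand), a cytoskeletal tropomyosin, read 25.5, 39.6, 29.8 and 23.1 eRPKM in the controls, 34.5, 35.1, 34.3 and 37.3 at 3 days and 76.6, 69.6 and 82.7 at 7 days, a log2 change of 1.38 ± 0.17 (adjusted p = 6.59e-05). Tpm2, the tropomyosin best known from smooth and slow skeletal muscle, was the only member whose 3-day livers (3.32 to 5.09 eRPKM) all lay below the controls (5.56 to 15.3), as 2.25% of all tested genes did, and its 7-day livers (3.50 to 5.38) did so too, although neither change was called (log2 -0.93 ± 0.29 and -0.76 ± 0.31, adjusted p = 0.203 and 0.0701). Tpm3 read 44.4 ± 3.13 eRPKM in the controls and 87.0 ± 11.1 at 7 days and missed the call against the controls (adjusted p = 0.0135); of its 50-base windows 62.4% are shared with Tpm3-rs7, so its level is uncertain. Tpm1 overlapped the controls at 7 days.

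Cnn2 (chr10:79451329-79458807, plus strand), a non-muscle calponin, read 8.10, 8.51, 7.69 and 6.09 eRPKM in the controls, 8.79, 9.15, 7.25 and 7.84 at 3 days and 13.7, 12.5 and 15.3 at 7 days. The rise of 0.83 ± 0.18 (adjusted p = 0.00301) was the smallest of the 19 and was called in 18 of 26 alternatives, being lost under both other scalings and in voom, with the depth covariate or the replicate block, without 7-day liver 1 or 3, and among the livers with more Xist than Ddx3y. Cnn3 and Cald1, at 69.8 ± 8.52 and 81.0 ± 7.31 eRPKM in the controls, were the most abundant genes of this group there, with 7-day log2 changes of 0.54 and 0.33 that were not called except, among other settings for Cnn3, after quantile normalization. Cnn1, the smooth-muscle calponin, had 0 to 14 reads per liver.

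Of the 10 genes in this group, the 7 not called were Tpm1, Tpm2, Tpm3, Cnn1, Cnn3, Tagln and Cald1. The marker genes of stellate cells, smooth muscle and fibroblasts were read alongside. Of these 13 genes 0 were called higher and 2 (15.4%) lower, Reln and Rgs5, beside 18.0% and 5.77% of all tested genes. In 4 (Lrat, Reln, Rgs5 and Dcn) every 7-day liver lay below every control, as held for 13.3% of all tested genes, and in 0 above. The 7-day log2 changes ran from -1.22 for Reln to 0.85 for Vim (not called), with 4 of 13 positive, so a sum can mask single genes. The summed level spanned 259 to 371 eRPKM in the controls, against 214 to 415 (3 days) and 213 to 275 (7 days). Acta2, smooth-muscle actin, read 1.11 to 8.57 eRPKM in the controls and 3.43 to 6.34 at 7 days.

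**Figure D4:**
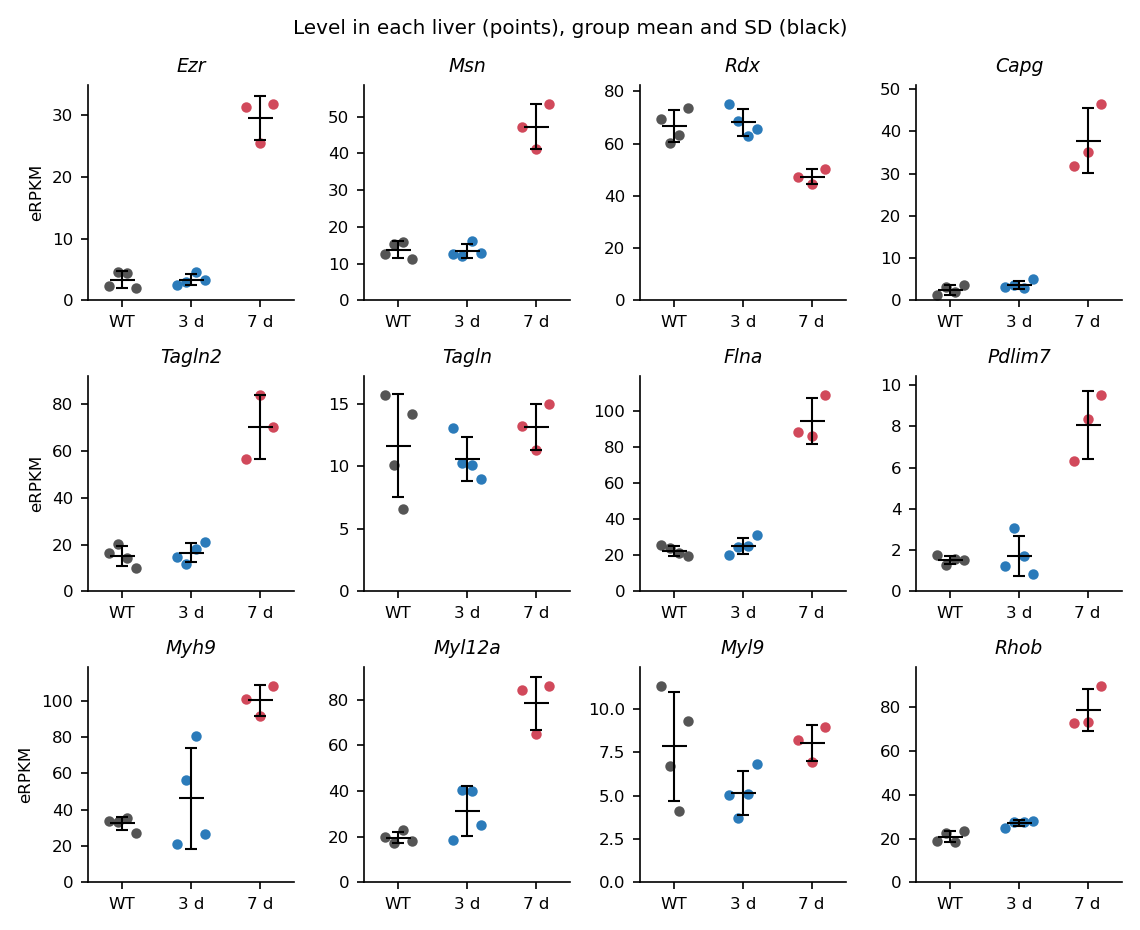
Level (eRPKM, vertical axis, each panel from 0) of 12 members in each liver (points), with the group mean and SD in black, for control (WT, n = 4), 3-day (n = 4) and 7-day (n = 3) livers. The 7-day points stand above all others for Ezr, Msn, Capg, Tagln2, Flna, Pdlim7, Myh9, Myl12a and Rhob, below them for Rdx, and among the control points for Tagln and Myl9.

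Of the actins Actg1 was called and Actb was not. Actg1 (chr11:120207004-120209856, minus strand), cytoplasmic gamma-actin, read 61.9, 62.7, 62.6 and 75.8 eRPKM in the controls, 48.4, 59.6, 72.5 and 48.8 at 3 days and 124, 99.3 and 133 at 7 days. It was higher at 7 days by 0.84 ± 0.17 on the log2 scale (adjusted p = 0.00213) and lost the call in 5 of 26 alternatives, among them median-ratio scaling and the fits without 7-day liver 1 or liver 3. Actb, cytoplasmic beta-actin and the most abundant member, read 226, 180, 301 and 401 eRPKM in the controls, 233, 288, 270 and 207 at 3 days and 249, 213 and 258 at 7 days.

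The Actb values overlapped entirely between groups, and the log2 change at 7 days was -0.15 ± 0.24 (95% interval -0.67 to 0.38). Its direction depended on scaling, since quantile normalization gave 0.60 with an adjusted p of 0.00686, and its control values followed library depth as described above. Gamma-actin's share of the pair was 20.1% ± 4.51 in the controls and 33.0% ± 1.09 at 7 days, without overlap; this ratio is also open to the compression of Actb, whose part in it was not tested.

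Filamin led the crosslinkers. Flna (chrX:71468800-71495159, minus strand), encoding filamin A, which joins actin filaments into orthogonal networks, read 25.7, 24.1, 21.1 and 19.6 eRPKM in the controls, 20.1, 24.5, 25.4 and 31.3 at 3 days and 88.6, 86.3 and 109 at 7 days. The rise of 2.04 ± 0.17 (adjusted p = 4.98e-06) was called in all 26 alternatives, including among livers with more Xist than Ddx3y. Lasp1, a LIM and SH3 protein of cortical actin, read 46.4, 44.4, 45.0 and 35.03 eRPKM in the controls, 29.1, 54.1, 54.8 and 37.2 at 3 days and 105, 93.4 and 115 at 7 days.

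Actn4, an alpha-actinin, read 41.8, 42.9, 40.4 and 31.6 eRPKM in the controls, 31.8, 41.8, 56.0 and 39.3 at 3 days and 74.4, 81.9 and 83.8 at 7 days. The log2 changes were 1.28 ± 0.21 for Lasp1 (adjusted p = 0.000527) and 1.03 ± 0.18 for Actn4 (adjusted p = 0.000887), and both calls were lost only with depth as a covariate (adjusted p = 0.0110 and 0.0144). The paralog Actn1 read 12.2 ± 1.07 eRPKM in the controls and 23.6 ± 2.28 at 7 days. It was called against 3 days (log2 change 1.27 ± 0.30, adjusted p = 0.00596) but not against the controls (0.92 ± 0.30, adjusted p = 0.0273). Against the controls 4 of 26 alternatives called it, among them the fit of these 2 groups only and the fit without 3-day liver 3. Actn4 held 76.1% of the pair in the controls and 77.2% at 7 days. Fscn1, the filopodial bundler fascin, likewise passed against 3 days (adjusted p = 0.00794) and not against the controls (adjusted p = 0.0116), and Plec and Lima1 were called in neither.

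At adhesion sites, 3 of 5 members rose. Pdlim7 (chr13:55597156-55615037, minus strand), a PDZ and LIM scaffold on actin bundles, read 1.76, 1.29, 1.57 and 1.51 eRPKM in the controls, 1.24, 3.06, 1.73 and 0.834 at 3 days and 6.31, 8.38 and 9.52 at 7 days. Tln1, talin, which links integrins to actin, read 34.97, 43.0, 35.9 and 31.6 eRPKM in the controls, 24.7, 35.6, 46.6 and 43.4 at 3 days and 89.9, 90.4 and 109 at 7 days. Zyx, the tension-sensitive LIM protein zyxin, read 15.5, 19.1, 18.4 and 10.4 eRPKM in the controls, 9.24, 14.9, 24.0 and 9.23 at 3 days and 34.0, 40.8 and 40.9 at 7 days.

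In each of these genes every 7-day liver exceeded every other liver. The log2 changes were 2.06 ± 0.31 for Pdlim7 (adjusted p = 0.000280), 1.40 ± 0.20 for Tln1 (adjusted p = 0.000205) and 1.29 ± 0.31 for Zyx (adjusted p = 0.00538). The Zyx call was kept in 18 of 26 alternatives and lost, among others, without any single 7-day liver. Vcl, vinculin, read 19.3 ± 1.55 eRPKM in the controls and 21.3 ± 0.708 at 7 days; its log2 change of 0.14 had a 95% interval of -0.24 to 0.52, so a change on the scale of talin's lay outside it, though 39.9% of its exon bases overlap Ap3m1 on the other strand and the counting did not use strand. Pdlim5 showed a log2 change of -0.02 (95% interval -0.36 to 0.32).

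The 8 genes of filament turnover and branching held the largest change of all members. Capg (chr6:72494385-72512977, plus strand), encoding the macrophage-capping protein CapG, which caps barbed ends and is abundant in macrophages, read 1.20, 3.25, 1.94 and 3.73 eRPKM in the controls, 3.21, 3.64, 2.95 and 5.06 at 3 days and 31.8, 35.1 and 46.4 at 7 days. It rose by 3.73 ± 0.31 on the log2 scale (adjusted p = 5.15e-06). Arpc1b (chr5:145875084-145891574, plus strand), an Arp2/3 subunit with high levels in blood cells, read 30.1, 31.1, 31.7 and 16.4 eRPKM in the controls, 29.1, 28.7, 30.5 and 29.8 at 3 days and 63.3, 63.7 and 83.9 at 7 days.

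Arpc1b rose by 1.38 ± 0.21 (adjusted p = 0.000319), with 18.2% of its exon bases overlapping antisense Pdap1. The other Arp2/3 subunits among the members were not called, with log2 changes of 0.30 for Arpc2 and 0.39 for Arpc5. Cfl1 and Pfn1, which encode cofilin and profilin and were the most abundant members after Actb, had 7-day changes of 0.19 and 0.39 and overlapped the controls. These 4 uncalled genes depended on scaling, as Actb did, since quantile normalization called all of them higher, with log2 changes of 0.79 for Cfl1 (adjusted p = 0.000181), 0.93 for Pfn1 (adjusted p = 0.00188), 0.55 for Arpc2 and 0.70 for Arpc5. Gsn, the severing protein gelsolin, read 9.61 ± 2.30 eRPKM in the controls and 7.00 ± 1.70 at 7 days (log2 change -0.43 ± 0.27).

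Of the last 4 members Rhob and Rhoc rose. Rhob (chr12:8504569-8506791, minus strand), an immediate-early gene, read 18.8, 22.6, 18.5 and 23.7 eRPKM in the controls, 24.9, 27.5, 27.7 and 28.2 at 3 days and 72.8, 73.5 and 89.7 at 7 days. Rhoc read 9.19, 8.52, 7.63 and 5.88 eRPKM in the controls, 9.999, 6.84, 6.49 and 10.2 at 3 days and 23.8, 24.4 and 27.3 at 7 days. Rhob was the only member with every 3-day liver above every control (3.38% of all tested genes were so), with a 3-day log2 change of 0.37 ± 0.13 that was not called (adjusted p = 0.280).

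At 7 days Rhob had a log2 change of 1.89 ± 0.14 (adjusted p = 2.70e-06) and Rhoc one of 1.64 ± 0.21 (adjusted p = 8.71e-05). Rnd3 changed by 0.13 (95% interval -0.36 to 0.62) and Cdc42ep3, a Cdc42 effector, by -0.13 at levels near 2 eRPKM.

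Some markers of other cells were also called at 7 days, to be read beside the 18.0% of all tested genes called higher and 5.77% called lower. In whole liver more cells of a type and more RNA per cell cannot be told apart. Of 6 macrophage markers, 4 were called higher at 7 days (Cd68, Csf1r, Vsig4 and Cd5l), and all 6 had every 7-day liver above every control, as did 36.7% of all tested genes. Their summed level was 231 to 468 eRPKM in the controls, against 296 to 533 (3 days) and 794 to 891 (7 days). Other leukocyte markers were called higher in 3 of 6 cases (Coro1a, Ptprc and Lsp1), with sums of 57.1 to 70.3 eRPKM in the controls and 138 to 162 at 7 days. The remaining 3, Cd3e, Cd79a and Lcp1, were not called, with 7-day log2 changes of 0.02, 0.21 and 0.42. Cd3e and Cd79a were low, with control means of 0.816 and 1.44 eRPKM. The counts for endothelial and cholangiocyte markers were near or below that of all tested genes. Endothelial markers were called higher in 2 of 8 cases (25.0%, sums 134 to 233 and 221 to 255) and cholangiocyte markers in 1 of 7 tested, Krt7 (14.3%, sums 43.6 to 53.4 and 68.6 to 124, with Cftr and Cldn7 under 1 eRPKM in every liver). The cholangiocyte sum, 45.1 to 87.3 at 3 days, was mostly Spp1, which was not called (means 38.7 eRPKM in the controls and 67.4 at 7 days). All 7 tested cholangiocyte markers had a positive 7-day change.

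Hepatocyte markers were present in every liver, and 3 of 8 were called lower (Cyp2e1, Ttr and Tat), with sums of 1560 to 4400 eRPKM in the controls and 1140 to 1278 at 7 days, a range that the compression of abundant genes also touches. Among blood markers Pf4 rose and Hbb-b1 fell, of 4. The part of these cells in the changes of Capg, Msn, Arpc1b and the other members was not tested.

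The rest of the actin pathway was read from 2 lists of non-member genes. Of 24 other genes of adhesion and crosslinking, 15 rose and 0 fell (median 1.15), led by Synpo (3.02 ± 0.28), an alpha-actinin partner, Anln (2.96 ± 0.37), the cytokinetic ring scaffold anillin, and Myh14 (2.47 ± 0.37), the heavy chain of myosin IIC.

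Of 22 other Arp2/3, capping and turnover genes, 7 rose and 0 fell (median 0.27, beside 0.26 for all tested genes), led by Coro1c (1.22 ± 0.21), Wasf2 (1.13 ± 0.20) and Cttn (1.02 ± 0.14). These shares, 62.5% and 31.8%, stand beside the 23.8% of all tested genes given above. At 3 days 0 genes were called in either list.

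Promoters were inspected in the 41 members with an entry in RefSeq (GRCm38.p6), from 250 bases before to 50 after the start. The 6-letter TEAD motif GGAATG, on either strand, was in 10 of 41 windows (24.4%), beside 14.9% of the tested genes with a window. The SRF motif known as the CArG box was in 7 of 41 (17.1%), beside 1.63%. Called and uncalled members alike held them. A CArG box stood before Actg1 and Cnn2, which were called, before Lima1, Myl9, Rnd3 and Vcl, which were not, and before Vil1, which was not tested. GGAATG matched in the called Actn4, Flna, Tagln2 and Myl12a and in the uncalled Arpc2, Cald1, Myh10, Pfn1, Tpm1 and Vcl. The stretches that follow show a CArG box before a pair of called and a pair of uncalled members, and GGAATG before Vcl, Tagln2 and Flna, written 5′ to 3′ on the gene's strand with the motif match in capitals (CATTCC is GGAATG read on the other strand).
Actg1, chr11:120348556-120348615, minus strand: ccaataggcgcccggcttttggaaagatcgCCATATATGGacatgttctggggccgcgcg
Cnn2, chr10:79988514-79988573, plus strand: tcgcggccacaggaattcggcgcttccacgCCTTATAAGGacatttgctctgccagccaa
Myl9, chr2:156775274-156775333, plus strand: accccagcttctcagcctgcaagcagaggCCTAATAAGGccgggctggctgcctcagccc
Vcl, chr14:20929158-20929277, plus strand: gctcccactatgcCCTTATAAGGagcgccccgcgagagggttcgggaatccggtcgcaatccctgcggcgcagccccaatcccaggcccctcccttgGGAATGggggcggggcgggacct
Tagln2, chr1:172500106-172500185, plus strand: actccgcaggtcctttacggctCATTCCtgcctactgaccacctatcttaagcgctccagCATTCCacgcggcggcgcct
Flna, chrX:74246651-74246710, minus strand: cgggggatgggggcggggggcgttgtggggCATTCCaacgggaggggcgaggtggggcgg
Vcl, with both motifs in its window, had a log2 change of 0.14, and Tagln2, with 2 GGAATG matches, one of 2.19. A match is a description of the letters and not of a bound site.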

How the data were processed

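RNA of 11 livers had been sequenced as paired-end TruSeq v2 libraries. Per the submitters' processing notes and the study's methods, reads were aligned to mm9 with TopHat 2.0.8 without strand, and featureCounts 1.4.5-p1 and DESeq2 are named; duplicate handling is not given in the sources used here. The deposited eRPKM (an RPKM over exons) were made by the authors and used as such. The table also holds, for the authors' own comparisons, a mean signal, log2 fold changes and adjusted p-values, deposited by the authors and not used here.

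For the 14244 genes reaching 0.5 eRPKM in 3 or more libraries, log2(eRPKM + 0.5) was fitted with limma 3.58.1 in R 4.3.3 over all 3 groups with trend, and p-values were adjusted by Benjamini-Hochberg over all tested genes. Fold changes are on this scale and understate those of low genes. Genes were called at adjusted p under 0.01 and absolute log2 change above 0.5. Whole reads were recovered from the eRPKM (100.0% of 177553 values within 0.1 read) and gave the depths. Shares of paralogs were compared by 2-sided exact permutation tests over livers. The script was tested on simulated data. Gene positions are from GENCODE M1 on mm9 (Myl12a by its older name), promoters from RefSeq.

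The members and lists were chosen with earlier results of these data known. In each role the called members are given in every liver, up to 4 by size of change, filled to 2 by abundance, with paralogs beside; of the pathway lists the 3 largest rises are named, and 1 further list is not reported here. Replicates are labelled as separate samples and not as separate animals, so p-values measure the spread between these samples. Same-numbered livers did not deviate together (correlations from -0.22 to 0.27).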

Additional observations from a re-analysis of the deposited data

Results flagged for a closer look

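In 7 of the 88 sets of 4 livers examined (a member in the control or 3-day group), 1 liver stood apart from the other 3 by more than Dixon's 95% limit for the gap as a share of the range; chance gives about 1 in 20. Control liver 4, the shallowest library, was the liver in question for Actg1 (0.946), Actn1 (0.865) and Arpc1b (0.895), being highest for Actg1 and lowest for the other pair, and control liver 3 was lowest for Vil1 (0.881). At 3 days the liver apart was liver 1 for Tpm1 (0.921), liver 4 for Pdlim5 (0.864) and liver 3 for Msn (0.838).

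Every 7-day library (5312486 to 5941357 reads) was deeper than every 3-day library (2660233 to 3681416). Time and depth therefore cannot be fully told apart between these groups. The change from 3 to 7 days was itself called by limma for 21 members, so their measured levels differed between the 2 times. On the log2 scale these differences were 3.19 for Capg, 2.98 for Ezr, 2.07 for Tagln2, 2.03 for Pdlim7, 1.89 for Flna, 1.77 for Msn, 1.56 for Rhoc, 1.52 for Rhob and 1.50 for Zyx. They were 1.38 for Tln1, 1.37 for Myl12a, 1.29 for Lasp1, 1.27 for Actn1, 1.22 for Arpc1b, 1.10 for Tpm4, 1.07 for Tpm3, 1.05 for Actg1, 1.0 for Fscn1, 0.94 for Actn4, 0.71 for Cnn2 and -0.52 for Rdx. Myh9 and Myl12b, called against the controls, were not called against 3 days (adjusted p = 0.0138 and 0.0149).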

How the results depend on the processing

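Of the 19 members called higher at 7 days, 12 were called under all 26 alternatives (Arpc1b, Capg, Ezr, Flna, Msn, Myl12a, Pdlim7, Rhob, Rhoc, Tagln2, Tln1 and Tpm4). The count against the controls ran from 13 with log2 depth as a covariate to 27 after quantile normalization, and from 15 to 22 with 1 liver left out; against 3 days it was 21 and ran from 14 to 24 with 1 liver left out. Among livers with more Xist than Ddx3y, an alternative chosen after seeing the data, 16 and 13 members were called; the cause was not tested, though fewer livers entered. Against 3 days, Cnn2 kept its call in 6 alternatives, Fscn1 and Tpm3 in 8 each and Actn1 in 15. Against the controls, the uncalled Tpm3, Actn1 and Fscn1 were called in 7, 4 and 3 alternatives. For each of them the fit without 3-day liver 3 was among these. With the label suffix MF as a covariate, also chosen after seeing the data, 22 and 21 were called. At 3 days 0 members were called under every alternative. Actb at 7 days reversed to 0.60 after quantile normalization; the cause was not tested. The replicate block gave 18, 16 and 0 calls at 7 days against controls, 7 against 3 days and 3 days against controls; the numbers do not pair the livers. For the paralog shares, the exact test passed 0, its smallest possible p leaving little room to pass after adjustment. By contrast, limma on log2 ratios passed 8 (7 days against controls), 5 (7 against 3 days) and 1 (3 days against controls) of 17, or 8, 6 and 2 with the replicate block. After quantile normalization 8 uncalled members were called higher (Actb, Arpc2, Arpc5, Cald1, Cfl1, Cnn3, Pfn1 and Tpm3). Compression of abundant genes was largest in the range of Actb and Cfl1. It bears in lesser degree on the other members that reached 300 reads per kilobase, among them the called Actg1, Myl12b, Lasp1, Tln1, Flna and Myh9. In the deepest control, all called members but Actg1 lay under 300 reads per kilobase. Genes under 100 and at 100 to 300 there read lower in the shallowest control, by medians of -0.54 and -0.39 on the log2 scale. The 7-day libraries were the deepest, in the direction of higher values for such members, and the part of depth in their rises was not tested. Few reads limit Cnn1 and Vil1.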

Other observations

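The order of levels among the members changed by 7 days. Actb, Cfl1 and Pfn1 held the 3 highest places by mean eRPKM in both the control and the 7-day livers. Rdx, at place 7 of 44 in the controls, was at place 21 at 7 days, while Flna went from place 21 to 11, Rhob from 24 to 15, Myl12a from 25 to 16, Ezr from 39 to 29 and Capg from 40 to 25. Neighbours in this order often differed by less than their spread, as did Cald1 and Cnn3 at 7 days (102 ± 7.80 and 102 ± 8.11 eRPKM).

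The 3-day livers were not alike. Livers 2 and 3 held the 2 highest 3-day values in 20 of the 43 tested members (46.5%), beside 32.7% of all tested genes. In 6 of these (Myh9, Myl12a, Myl12b, Tpm3, Cnn3 and Lasp1) both livers were above every control. The share of all tested genes with that pattern was not computed, so this count has no reference beside it. Livers 1 and 4 carry the suffix MF in their column names, whose meaning is not given in the sources used here; liver 1 was also the shallowest of the 4, and what sets the pairs apart was not tested.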
